A study of Mus musculus with 6 samples.

Results

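The genes described here encode ubiquitin-conjugating (E2) enzymes. They were taken as the rows of the deposited table whose gene ID maps to a mouse protein-coding gene with a symbol that starts with Ube2 and a further letter, which gave 37 genes of 52550 IDs. Of these, 32 averaged at least 1 FPKM (sequenced fragments divided by transcript length and by the size of the library) over all libraries and were tested. Ube2cbp, 1 of the 32, carries the Ube2 name because its product was named for binding an E2 and is not itself an E2.

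YTHDF1 and YTHDF2 are readers of m6A (N6-methyladenosine), a modified base of mRNA, and RNA immunoprecipitation with sequencing (RIP-seq) asked which transcripts each of them was recovered with. The material was cerebellum granule cells of wildtype C57BL/6 mice at postnatal day 8, obtained by dissociating the cerebellum, and the labels describe no sort of the cells. There were 2 libraries from anti-YTHDF1 RIP, 2 from anti-YTHDF2 RIP and 2 from input, the lysate before immunoprecipitation, and all shared the strain, genotype, age and tissue. The labels do not say whether the replicates are separate animals or preparations, and the p-values below therefore reflect the scatter of these libraries, which could be technical only.

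Ubiquitin is passed from an activating enzyme (E1) to the active-site cysteine of an E2, and from there to a target protein, usually with the help of a ligase (E3) that brings E2 and target together. The E2 often decides which kind of chain is built, and with it whether the target goes to the proteasome, is moved, or gains a signaling function. In growing neurons the system is known for its part in axon growth, synapse formation and the exit of precursors from the cell cycle.

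The libraries differed in makeup before any E2 gene was considered. Mitochondrially encoded genes held 0.607% and 3.68% of the summed FPKM for YTHDF1 and 0.0892% and 0.886% for YTHDF2, against 18.4% and 18% in input. Nuclear protein-coding genes held 10.1% and 12.9% for YTHDF1 and 11.3% and 18.9% for YTHDF2, against 7.71% and 8.26% in input. Most of the sum thus lay in other genes. FPKM divides by the whole library, so changes are given below as deposited, and the role-group medians also relative to the median of the 11057 tested genes. That median was 0.05 (log2) for YTHDF1 RIP against input and 0.26 for YTHDF2 RIP against input. All 11 granule cell markers, among them Neurod1, Zic1 and Pax6, were above 0 in at least 1 library, and 8 of them averaged at least 1 FPKM. Their summed level was 543 and 336 FPKM in the YTHDF1 RIP, 687 and 809 in the YTHDF2 RIP, and 330 and 453 in input. Neurod1 alone held 183 and 224 FPKM of the input sums. Markers of other cell types were present too, with a sum over 7 astrocyte and Bergmann glia genes of 80.9 to 175 FPKM in the RIP libraries and 149 to 203 in input. In input, a bulk sample, the number of cells of a type and the RNA per cell cannot be told apart. RIP levels depend on recovery as well, so the RIP sums do not count cells. No library from a control antibody was analysed here, so recovery by the antibody and recovery by the beads cannot be told apart.

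m6A is placed in a short sequence context of which GGACT is the best known form. These letters were searched for on the sense strand of 1 representative transcript per gene (GENCODE release 21, GRCm38), and no other motif was searched. They were present in 29 of the 32 tested E2 genes (90.6%), against 92.5% of the 9815 tested protein-coding genes. The median was 1.05 matches per kb in the E2 genes and 1.04 per kb in the protein-coding genes. The windows below show the match nearest the stop codon for a selection of the E2 genes whose recovery passed a test in the sections that follow, with or without the replicate block, with GGACT in capitals and 10 bases on either side. Ube2h, Ube2k, Ube2q2 and Ube2ql1 are not shown. Each is a match of letters in the reference sequence, not a measured m6A site.
Ube2o, coding sequence, chr11:116540087-116540111, minus strand: ggccccactcGGACTccctatgaag
Ube2v1, 3′ UTR, chr2:167608666-167608690, minus strand: agcagttgtgGGACTgactactgct
Ube2n, 3′ UTR, chr10:95542537-95542561, plus strand: ctgagaagcaGGACTctctgctttg
Ube2a, 3′ UTR, chrX:36883836-36883860, plus strand: tgtaagaacaGGACTagactttttt
Ube2c, coding sequence, chr2:164772013-164772037, plus strand: tatgatgtcaGGACTatcttgctct
Ube2d3, coding sequence, chr3:135465208-135465232, plus strand: tctcgggaatGGACTcagaagtatg
Ube2d1, coding sequence, chr10:71255837-71255861, minus strand: gcaagagaatGGACTcagaaatatg
The Ube2d1 and Ube2d3 windows are shown together because they are the same place in a pair of paralogs. In both, the match starts 20 nt before the stop codon, and 20 of the 25 positions are identical. Ube2q1 and Ube2e1, which passed the test in opposite directions, had no match in their representative transcripts, and neither did Ube2w, whose representative transcript holds no 3′ UTR.

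The summed level of the E2 genes was of the same order in every library. The 37 genes summed to 186 and 166 FPKM in the YTHDF1 RIP, 218 and 237 in the YTHDF2 RIP, and 206 and 210 in input. As a share of the FPKM of nuclear protein-coding genes this was 0.277% and 0.254% in the YTHDF1 RIP, 0.312% and 0.26% in the YTHDF2 RIP, and 0.313% and 0.292% in input. The YTHDF2 RIP and input ranges of this share overlapped, and both YTHDF1 RIP values lay below both input values.

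Single members ranged widely around that total. In input the most abundant was Ube2d2a, one of the broadly acting E2s that work with many E3s, at 19.3 ± 2.47 FPKM (SD, n = 2). Ube2c, which starts ubiquitin chains on substrates of the anaphase-promoting complex, followed at 17.1 ± 2.92 FPKM (SD, n = 2). The ranges of these first 2 genes overlapped, with 21 and 17.5 FPKM for Ube2d2a and 15.1 and 19.2 FPKM for Ube2c. Ube2e3, Ube2ql1, Ube2b and Ube2r2 came next, with means of 12.3, 11.1, 11 and 10.8 FPKM. Neighbours in this order did not differ beyond their spread either, except that both Ube2c values lay above both Ube2e3 values. At the low end, Ube2dnl1 and Ube2dnl2 were at 0 in all 6 libraries. Ube2u reached at most 0.0685 FPKM in input replicate 1, and Ube2d2b and Ube2t also averaged less than 1 FPKM. These 5 genes were not tested. Ube2cbp and Ube2l6 averaged 0.727 and 0.782 FPKM in input and entered the test through their RIP libraries. Ube2a and Ube2d3 entered it through input, with means of 0.83 and 0.884 FPKM in the YTHDF1 RIP. Their YTHDF2 RIP means were 0.869 and 0.89 FPKM.

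YTHDF2 RIP against input gave calls in both directions. Ube2o, Ube2q1 and Ube2v1 rose and Ube2a, Ube2c, Ube2d3 and Ube2e1 fell (limma on log2(FPKM + 1), Benjamini-Hochberg adjusted p under 0.05 over all 11057 genes). The 3 that rose are 9.38% of the members, and 11.9% of all tested genes rose. The 4 that fell are 12.5% of the members, and 6.66% of all tested genes fell. Of these, Ube2a and Ube2d3 had entered the test through input, which favors a fall. With the replicate number as a block in the fit, 5 members were higher (19.7% of all genes) and 6 were lower (10.6% of all genes). The additions were Ube2h and Ube2ql1 among the higher and Ube2d1 and Ube2q2 among the lower. Whether the replicate numbers pair input with RIP libraries is uncertain, here and wherever the block is used below. Over the 32 members the median log2 change was -0.22, against 0.26 over all tested genes, and 13 members were above 0, against 59.5% of all tested genes. At an unadjusted p under 0.05, 5 members were higher and 8 were lower (24% and 13.6% of all tested genes).

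**Figure D1:**
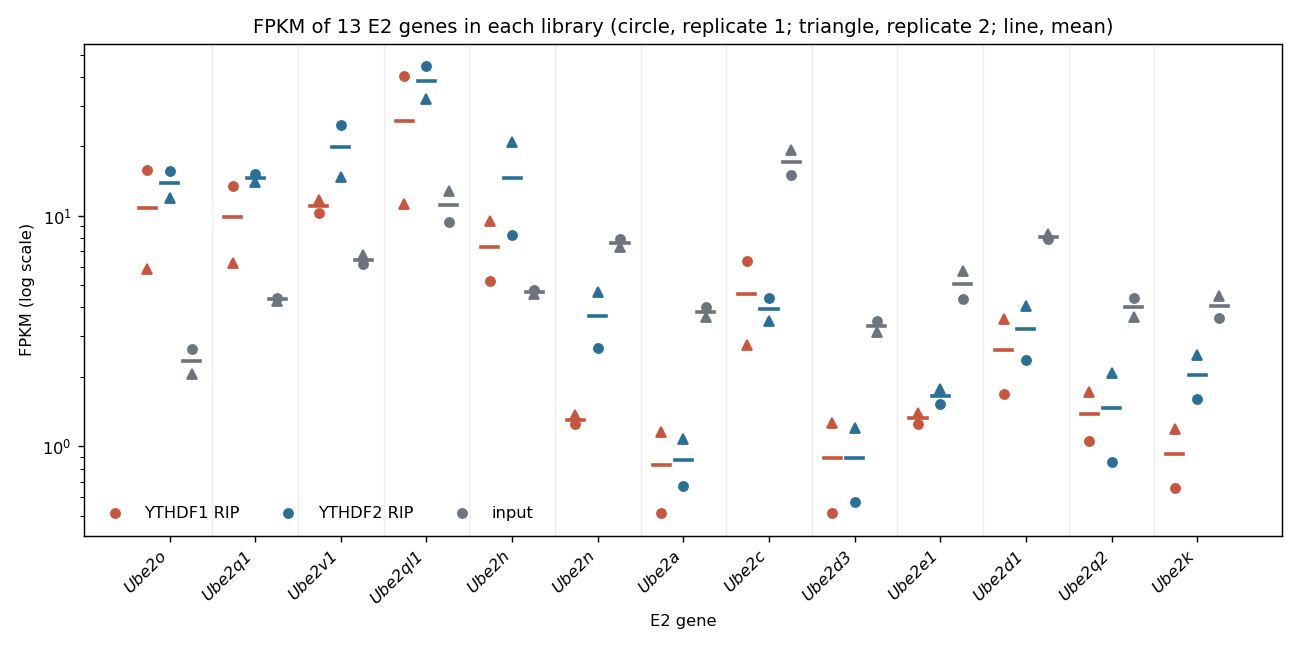
FPKM (log axis) of 13 E2 genes in the 2 libraries of YTHDF1 RIP (red), YTHDF2 RIP (blue) and input (grey); circles are replicate 1, triangles replicate 2 and short lines the mean of the 2. The genes are those past the test against input in either RIP, with or without the replicate block. Both YTHDF2 RIP values of Ube2o (15.7 and 12 FPKM) lie above both input values (2.65 and 2.06 FPKM), while both of Ube2c (4.41 and 3.5 FPKM) lie below them (15.1 and 19.2 FPKM).

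Ube2o (ENSMUSG00000020802, chr11:116537740-116581447, minus strand) encodes an unusually large E2 that also acts as its own E3 and marks unassembled proteins. It had 15.8 and 5.9 FPKM in the YTHDF1 RIP and 15.7 and 12 FPKM in the YTHDF2 RIP, against 2.65 and 2.06 FPKM in input. All 4 RIP values lay above both input values, and YTHDF1 RIP replicate 2 was the lowest of the 4. In the YTHDF2 RIP the log2 change was 2.14 ± 0.48 (SE, limma adjusted p = 0.0283), the highest of the 32 members. In the YTHDF1 RIP it was 1.69 ± 0.48, with a limma adjusted p of 0.0923 without the replicate block and 0.0242 with it. Its coding sequence of 3864 nt is far longer than the members' median of 549 nt, and all 5 GGACT matches, including the one shown above, fall in it.

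Ube2q1 (ENSMUSG00000042572, chr3:89773616-89784000, plus strand) belongs to a small group of E2s with a long extension before the catalytic domain. It had 13.5 and 6.21 FPKM in the YTHDF1 RIP and 15.2 and 14 FPKM in the YTHDF2 RIP, against 4.42 and 4.27 FPKM in input. Both groups lay above input and the YTHDF2 RIP replicates were close to each other. The log2 change was 1.55 ± 0.43 in the YTHDF2 RIP (SE, limma adjusted p = 0.0459) and 0.94 ± 0.43 in the YTHDF1 RIP (limma adjusted p = 0.213). Ube2ql1, a relative of Ube2q1, had the highest mean of any member in both RIPs. It had 40.4 and 11.3 FPKM in the YTHDF1 RIP and 44.5 and 32 FPKM in the YTHDF2 RIP, against 9.38 and 12.8 FPKM in input. YTHDF1 RIP replicate 2 fell within the input range, and both YTHDF2 RIP values lay above it. The YTHDF2 RIP change of 1.69 ± 0.62 did not pass as deposited and passed with the replicate block (limma adjusted p = 0.0916 without it and 0.0359 with it).

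Ube2v1 and Ube2n are best described together, because their products form 1 heterodimer. Ube2v1 lacks the catalytic cysteine and holds the acceptor ubiquitin, while Ube2n carries the thioester, and the pair builds chains that serve signaling and DNA repair more than degradation. Ube2v1 (ENSMUSG00000078923, chr2:167607638-167632095, minus strand) had 10.3 and 11.7 FPKM in the YTHDF1 RIP and 24.8 and 14.8 FPKM in the YTHDF2 RIP, against 6.18 and 6.73 FPKM in input. The groups did not overlap, with the YTHDF2 RIP highest, the YTHDF1 RIP between and input lowest. The log2 change was 1.44 ± 0.40 in the YTHDF2 RIP (SE, limma adjusted p = 0.0464) and 0.68 ± 0.40 in the YTHDF1 RIP (limma adjusted p = 0.312). Ube2n (ENSMUSG00000074781, chr10:95515145-95545657, plus strand) had 1.25 and 1.36 FPKM in the YTHDF1 RIP and 2.68 and 4.68 FPKM in the YTHDF2 RIP, against 7.91 and 7.34 FPKM in input. It was lowest in the YTHDF1 RIP, and no group overlapped another. Its change of -1.90 ± 0.34 in the YTHDF1 RIP was the lowest of the members there (SE, limma adjusted p = 0.0418), while -0.91 ± 0.34 in the YTHDF2 RIP did not pass (limma adjusted p = 0.0989). The values of Ube2n are uncertain, because the processed pseudogene Ube2n-ps1 is identical to its coding sequence over 456 nt and how the authors' counting divided the shared reads is not known. Ube2n-ps1 had 2.1 and 3.52 FPKM in the YTHDF1 RIP and 3.72 and 4.86 FPKM in the YTHDF2 RIP, against 16.5 and 18.1 FPKM in input. Ube2v2, the other catalytically inactive partner of Ube2n, had log2 changes of -0.52 ± 0.58 in the YTHDF1 RIP and 0.21 ± 0.58 in the YTHDF2 RIP, and its groups overlapped in all 3 comparisons.

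Ube2a and Ube2b are the mammalian counterparts of yeast Rad6 and ubiquitinate chromatin and the replication clamp after DNA damage. Ube2a (ENSMUSG00000016308, chrX:36873900-36884222, plus strand) had 0.513 and 1.15 FPKM in the YTHDF1 RIP and 0.671 and 1.07 FPKM in the YTHDF2 RIP, against 4 and 3.64 FPKM in input. The input values stood well above all 4 RIP values, and replicate 1 was the lower in both RIPs. The log2 change was -1.37 ± 0.31 in the YTHDF2 RIP (SE, limma adjusted p = 0.0286). In the YTHDF1 RIP it was -1.42 ± 0.31, which did not pass as deposited and passed with the block (limma adjusted p = 0.0574 without it and 0.0167 with it). Ube2b, an abundant member, had 2.76 and 8.84 FPKM in the YTHDF1 RIP and 3 and 6.29 FPKM in the YTHDF2 RIP, against 10.9 and 11.1 FPKM in input. All 4 RIP values were below input, with replicate 1 again the lower in both RIPs, and neither change passed (-0.98 ± 0.54 and -1.15 ± 0.54, limma adjusted p = 0.279 and 0.159 for YTHDF1 and YTHDF2).

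Ube2c and Ube2s act in turn on the anaphase-promoting complex, Ube2c starting the chains and Ube2s extending them. Ube2c (ENSMUSG00000001403, chr2:164769898-164778822, plus strand) had 6.38 and 2.76 FPKM in the YTHDF1 RIP and 4.41 and 3.5 FPKM in the YTHDF2 RIP, against 15.1 and 19.2 FPKM in input. All 4 RIP values lay below both input values. The YTHDF2 RIP change of -1.87 ± 0.43 was the lowest of the members there (SE, limma adjusted p = 0.0291), and the YTHDF1 RIP change of -1.77 ± 0.43 did not pass as deposited and passed with the block (limma adjusted p = 0.0686 without it and 0.0206 with it). Ube2s had 5.97 and 3.85 FPKM in the YTHDF1 RIP and 4.46 and 4.08 FPKM in the YTHDF2 RIP, against 9.83 and 10.6 FPKM in input. It was below input in every RIP library and did not pass (-0.95 ± 0.36 and -1.09 ± 0.36, limma adjusted p = 0.146 and 0.0692 for YTHDF1 and YTHDF2). A list of 11 precursor and cell cycle genes was also followed. In the RIP libraries its level depends on recovery too, so it does not count dividing precursors. Its summed level was 131 and 81.5 FPKM in the YTHDF1 RIP and 144 and 168 FPKM in the YTHDF2 RIP, against 133 and 101 FPKM in input. Of its genes, Gli1, Gli2 and Mycn rose in the YTHDF2 RIP and none fell without the block, against 11.9% and 6.66% of all tested genes, while with the block 4 were higher and 1 was lower. All 11 were above 0 in at least 1 library. Top2a, a gene of dividing cells, had 5.85 and 9.06 FPKM in the YTHDF1 RIP and 4.75 and 9.81 FPKM in the YTHDF2 RIP, against 18.3 and 20.6 FPKM in input, so single genes of the list lay on either side. The part that dividing precursors have in the Ube2c values was not tested.

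The Ube2d and Ube2e genes encode E2s with a wide choice of E3 partners. Their changes lay between -1.38 (Ube2d1) and -0.41 (Ube2d2a) in the YTHDF1 RIP and between -1.21 (Ube2d3) and 0.14 (Ube2e3) in the YTHDF2 RIP. Ube2d3 (ENSMUSG00000078578, chr3:135438149-135468198, plus strand) had 0.511 and 1.26 FPKM in the YTHDF1 RIP and 0.575 and 1.2 FPKM in the YTHDF2 RIP, against 3.5 and 3.13 FPKM in input. Ube2e1 (ENSMUSG00000021774, chr14:18282722-18331859, minus strand) had 1.25 and 1.4 FPKM in the YTHDF1 RIP and 1.53 and 1.78 FPKM in the YTHDF2 RIP, against 4.36 and 5.74 FPKM in input. For both genes every RIP value was below every input value. In the YTHDF2 RIP the log2 change was -1.21 ± 0.34 for Ube2d3 and -1.18 ± 0.30 for Ube2e1 (SE, limma adjusted p = 0.0456 and 0.0373). In the YTHDF1 RIP the changes were -1.22 ± 0.34 and -1.37 ± 0.30, which did not pass as deposited and passed with the block (limma adjusted p = 0.0848 and 0.0574 without it, 0.0309 and 0.0221 with it). The exons of Ube2d3 together span 24499 nt, against 3833 nt in its representative transcript, so its FPKM depends on the transcript length that the authors' counting used. Ube2d1 had 1.68 and 3.56 FPKM in the YTHDF1 RIP and 2.37 and 4.06 FPKM in the YTHDF2 RIP, against 7.89 and 8.33 FPKM in input. It too was below input in every RIP library, and in both RIPs it did not pass as deposited and passed with the block (-1.38 ± 0.40 and -1.14 ± 0.40, limma adjusted p = 0.0929 and 0.0819 without it, 0.0332 and 0.0396 with it, for YTHDF1 and YTHDF2).

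Ube2d2a, Ube2e2 and Ube2e3 passed in neither RIP, with or without the block. Ube2d2a had 13 and 15.7 FPKM in the YTHDF1 RIP and 16.1 and 22.6 FPKM in the YTHDF2 RIP, against 21 and 17.5 FPKM in input. Its YTHDF1 RIP values lay below input and its YTHDF2 RIP values overlapped it, with a log2 change of -0.01 ± 0.41 in the YTHDF2 RIP. Ube2e3 had 4.37 and 8.8 FPKM in the YTHDF1 RIP and 11.2 and 16.7 FPKM in the YTHDF2 RIP, against 12.9 and 11.8 FPKM in input. Only its YTHDF1 RIP values lay apart from input, and the changes of -0.88 ± 0.44 in the YTHDF1 RIP and 0.14 ± 0.44 in the YTHDF2 RIP did not pass. The coding sequence of Ube2d2a is 86.4% identical to that of Ube2d3 and 76% identical to that of Ube2d1, and that of Ube2e3 is 69.7% identical to that of Ube2e1. How the authors' counting treated reads shared by paralogs is not known. Whether the change differed between paralogs was not tested.

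Of the E2s that build degradative chains, Ube2k, which can extend chains without an E3, had the lowest change in the YTHDF1 RIP. Its values were 0.659 and 1.19 FPKM in the YTHDF1 RIP and 1.6 and 2.48 FPKM in the YTHDF2 RIP, against 3.6 and 4.49 FPKM in input. The 3 groups did not overlap, in the order YTHDF1 RIP, YTHDF2 RIP and input. The YTHDF1 RIP change of -1.40 ± 0.33 did not pass as deposited and passed with the block (limma adjusted p = 0.065 without it and 0.0189 with it), and the YTHDF2 RIP change of -0.74 ± 0.33 did not pass (limma adjusted p = 0.143). Ube2r2, a relative of the cullin-RING partner Cdc34, had 11.7 and 6.93 FPKM in the YTHDF1 RIP and 15 and 9.94 FPKM in the YTHDF2 RIP, against 11.5 and 10.1 FPKM in input, so both RIPs overlapped input. None of the 4 members linked to degradation at the endoplasmic reticulum passed in either RIP with or without the block. Their changes lay between -1.32 (Ube2j1) and 0.42 (Ube2g2) in the YTHDF1 RIP and between -1.01 (Ube2j1) and 0.16 (Ube2g2) in the YTHDF2 RIP.

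Ube2h and Ube2q2 did not pass against input in the YTHDF2 RIP as deposited and passed with the block. Ube2h, the E2 of the CTLH ligase complex, had 5.2 and 9.48 FPKM in the YTHDF1 RIP and 8.22 and 21 FPKM in the YTHDF2 RIP, against 4.75 and 4.59 FPKM in input. Every RIP value was above input and replicate 2 was the higher in both RIPs. The YTHDF2 RIP change was 1.33 ± 0.51 (SE, limma adjusted p = 0.102 without the block and 0.0385 with it). Ube2q2 had 1.05 and 1.72 FPKM in the YTHDF1 RIP and 0.856 and 2.07 FPKM in the YTHDF2 RIP, against 4.41 and 3.63 FPKM in input. Its values were below input in all RIP libraries, opposite to its paralog Ube2q1, with which it shares 66.5% of the aligned coding sequence. The YTHDF2 RIP change was -1.07 ± 0.36 (limma adjusted p = 0.0757 without the block and 0.0394 with it).

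The E2s of the ubiquitin-like modifiers NEDD8 (Ube2m and Ube2f) and ISG15 (Ube2l6) passed in neither RIP, with or without the block. Their changes were between -0.12 (Ube2f) and 0.50 (Ube2l6) in the YTHDF1 RIP and between -0.14 (Ube2f) and 0.40 (Ube2l6) in the YTHDF2 RIP. Ube2z, which receives ubiquitin from the alternative E1 Uba6, had 5.47 and 5.51 FPKM in the YTHDF1 RIP and 7.03 and 7.92 FPKM in the YTHDF2 RIP, against 4.2 and 4.57 FPKM in input. Its RIP values were all above input, and neither change passed (0.27 ± 0.33 and 0.65 ± 0.33 for YTHDF1 and YTHDF2). Ube2cbp, Ube2e2 and Ube2w did not pass either, with YTHDF1 RIP changes of 0.66, -0.52 and -0.56 and YTHDF2 RIP changes of 0.20, -0.45 and -0.70.

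By role, the median change relative to all tested genes was 0.74 in the YTHDF1 RIP and 0.84 in the YTHDF2 RIP for the 6 extended or atypical members (Ube2o, Ube2z, Ube2q1, Ube2q2, Ube2ql1, Ube2cbp), and for the 4 tested cell cycle and DNA damage members (Ube2a, Ube2b, Ube2c, Ube2s) it was -1.25 and -1.52. In the extended or atypical group, Ube2q2 went the other way, with changes of -1.08 and -1.07, and the other 5 were above 0 in both RIPs. The relative median was -0.61 and -0.96 for the 9 tested broad partners and -0.81 and -0.77 for the 6 builders of degradative chains. For the 3 genes Ube2n, Ube2v1 and Ube2v2 it was -0.57 and -0.05. The median of the group for ubiquitin-like modifiers is not given. These role groups were drawn up with earlier results of these libraries known, and their medians carry no test.

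**Figure D2:**
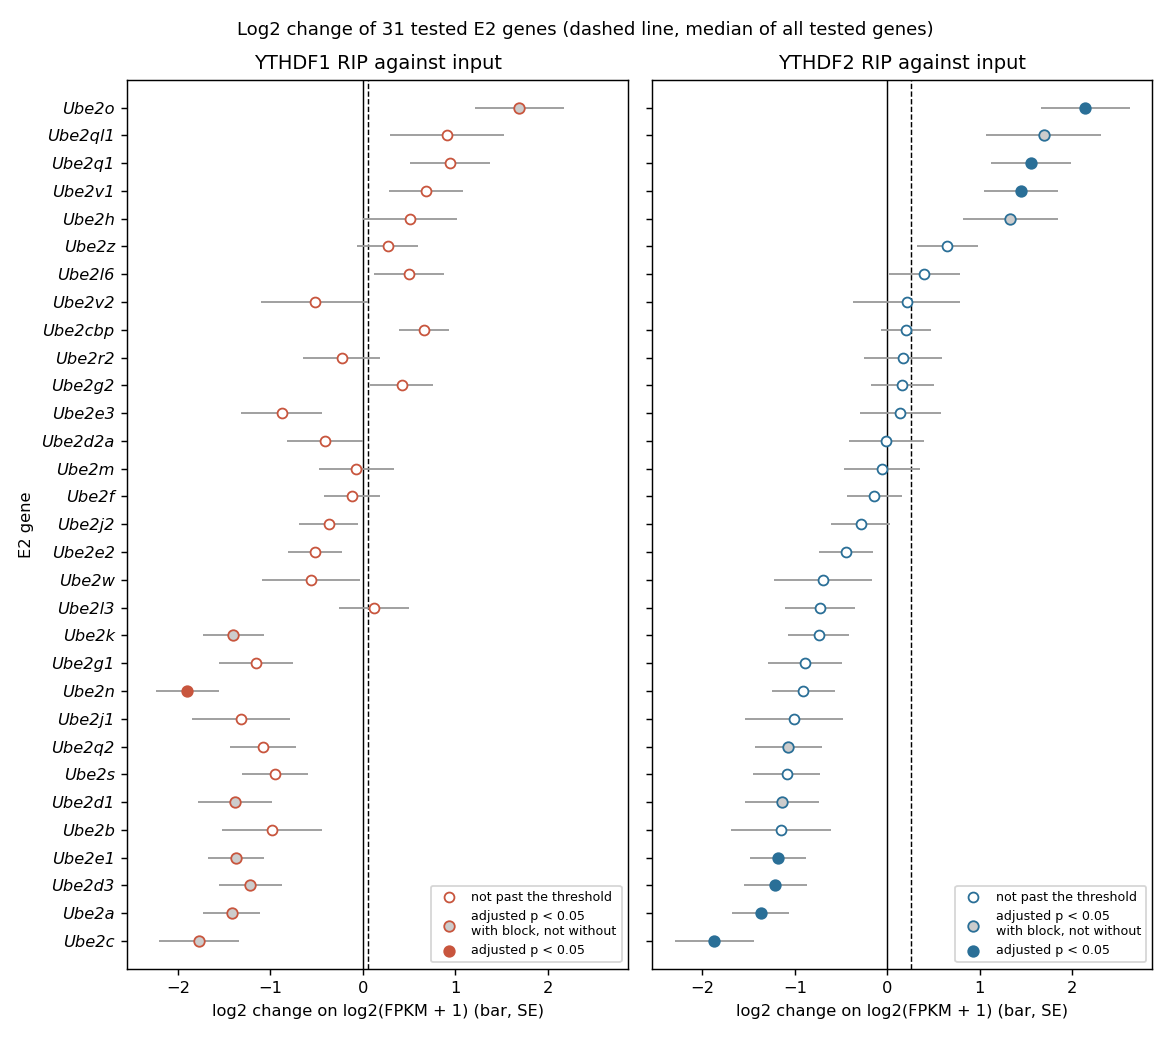
Log2 change of 31 of the 32 tested E2 genes on log2(FPKM + 1), in order of the YTHDF2 RIP change, for YTHDF1 RIP against input (left) and YTHDF2 RIP against input (right). Points are estimates and bars their SE, with filled points past an adjusted p of 0.05, grey points past it with the replicate block and not without it, and a dashed line at the median of all tested genes (0.05 and 0.26). The changes run between -1.90 (Ube2n) and 1.69 (Ube2o) on the left and between -1.87 (Ube2c) and 2.14 (Ube2o) on the right.

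YTHDF1 RIP against input gave 1 call among the members. Ube2n fell (3.12% of the members, against 1.94% of all tested genes) and no member rose (0.624% of all tested genes). At an unadjusted p under 0.05, 2 members were higher and 11 were lower (13.2% and 13.5% of all tested genes). The 2 higher were Ube2o and Ube2cbp, and Ube2cbp had entered the test through its RIP libraries, which favors a rise. Ube2a and Ube2d3 are among the lower here and with the block below, and had entered through input, which favors a fall. With the replicate block, 1 member was higher (Ube2o, with 5.16% of all tested genes) and 7 were lower (Ube2a, Ube2c, Ube2d1, Ube2d3, Ube2e1, Ube2k and Ube2n, with 7.79% of all tested genes). The median of the members was -0.46, against 0.05 over all tested genes, and 11 members were above 0, against 52.3% of all tested genes. Both RIPs were set against the same 2 input libraries, so their changes are not independent.

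Without any test, the separation of libraries showed more members below input than above it. Both YTHDF1 RIP values lay above both input values for 8 members and below them for 16 of the 32, against 33.8% and 30.2% of all tested genes. Both YTHDF2 RIP values lay above input for 9 members and below it for 16, against 41.5% and 24.9% of all tested genes. A ratio of group means over 2 was reached by 5 members in the YTHDF1 RIP (Ube2o, Ube2ql1, Ube2q1, Ube2cbp and Ube2l6) and by 5 in the YTHDF2 RIP (Ube2o, Ube2ql1, Ube2q1, Ube2h and Ube2v1), against 23.3% and 34.4% of all tested genes. Ube2cbp and Ube2l6 had passed the filter on low values through their RIP libraries, as said above, which favors a ratio over 1. The ratio was reached in both replicate pairs by 2 of them in the YTHDF1 RIP and 4 in the YTHDF2 RIP. A ratio under 0.5 was found for 11 and 13 members in the YTHDF1 and YTHDF2 RIP, against 19.1% and 16.9% of all tested genes. Ube2a and Ube2d3 are among them in both RIPs and had passed the filter through input, which favors a ratio under 1.

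The calls depended on single libraries. Without input replicate 1, without input replicate 2 and without YTHDF2 RIP replicate 2, 0 members passed in the YTHDF2 RIP, and without YTHDF2 RIP replicate 1 only Ube2c (lower) and Ube2h (higher) passed. Ube2v1 and Ube2e1 did not pass without YTHDF1 RIP replicate 1, nor did Ube2v1 and Ube2d3 without YTHDF1 RIP replicate 2, and Ube2ql1 passed in both of these fits. The Ube2n call in the YTHDF1 RIP was lost without either YTHDF1 RIP library and without either input library, and without either YTHDF2 RIP library 4 members were lower there (Ube2a, Ube2e1, Ube2k and Ube2n). The estimates of the called genes kept their sign, and lay between 1.96 and 2.32 for Ube2o, 1.09 and 1.79 for Ube2v1 and -2.03 and -1.70 for Ube2c in the YTHDF2 RIP. When every gene above 0 in some library was tested, without the filter on low values, 0 members passed in either RIP. Scaling mattered for the genes that rose and for those that fell. When libraries were scaled to their nuclear protein-coding genes, Ube2o was the only member higher in the YTHDF2 RIP (1.96, with 10.8% of all tested genes) and 8 members were lower (9.61% of all tested genes). With median-of-ratios scaling 0 members were higher (8.85%) and 9 were lower (11.9%), and Ube2o, Ube2q1 and Ube2v1 had changes of 1.84, 1.24 and 1.12. With each library divided by its FPKM sum, 4 members were higher (20.5%) and 0 were lower (2.03%). Several genes that passed with the block also passed under at least 1 alternative without it, and each of them failed under others. None of them passed without the filter on low values. In the YTHDF1 RIP these were Ube2a, Ube2d1, Ube2d3, Ube2e1 and Ube2k with median-of-ratios scaling and Ube2c with the filter at 5 FPKM. In the YTHDF2 RIP they were Ube2ql1 with division by the FPKM sum, and Ube2d1 and Ube2q2 with median-of-ratios scaling.

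The members' medians also moved with these settings. With the filter at 5 FPKM, 16 members were tested. Their median was 0.10 in the YTHDF1 RIP, against 0.10 over all tested genes, with 8 members above 0. In the YTHDF2 RIP it was 0.15, against 0.35, with 10 members above 0. With division by the FPKM sum, 16 of the 32 members were above 0 in the YTHDF1 RIP and 17 in the YTHDF2 RIP, with medians of -0.04 and 0.25, against 0.49 and 0.79 over all tested genes.

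YTHDF2 RIP against YTHDF1 RIP gave no call among the members. None of the 32 passed in the limma fit (0.00904% of all tested genes were higher and 0% lower), and at an unadjusted p under 0.05 there was 1 member, Ube2n, higher in the YTHDF2 RIP (3.54% of all tested genes higher and 0.778% lower). Its difference was 0.99 ± 0.34 (SE, limma adjusted p = 0.864). The difference of the other members ranged between -0.85 ± 0.38 (Ube2l3) and 1.02 ± 0.44 (Ube2e3). Ube2l3, the E2 that serves RBR ligases, had 1.47 and 1.79 FPKM in the YTHDF2 RIP, against 4.53 and 3.05 FPKM in the YTHDF1 RIP. Both YTHDF2 RIP values were lower, the opposite of Ube2e3 and Ube2n. Both YTHDF2 RIP values lay above both YTHDF1 RIP values for 8 members and below them for 3, against 21.6% and 8.09% of all tested genes. The difference was above 0 for 22 members, against 69.9% of all tested genes, and its median was 0.13 in the members and 0.22 in all tested genes.

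Transcript composition varied with recovery in the E2 genes as in other genes. Across the 32 members the GC content of the representative transcript and the YTHDF1 RIP change had Pearson's r = 0.63 and Spearman's rho = 0.67, and across 9815 protein-coding genes r = 0.54 and rho = 0.56. For the YTHDF2 RIP the values were r = 0.50 and rho = 0.51 in the members and r = 0.40 and rho = 0.40 in the protein-coding genes. These are correlations across genes measured in the same libraries, and genes are not independent replicates. Ube2o (58.2% GC), Ube2ql1 (60.2%) and Ube2v1 (55.1%) lie at the upper end, and Ube2d3 (39.7%), Ube2n (40.6%) and Ube2a (42.1%) at the lower end. Ube2v2 has the lowest GC content (35.1%) and Ube2m the highest (63.4%), and neither passed in either RIP. Ube2s and Ube2c, at 58.5% and 51.4%, were below input in every RIP library. The density of GGACT had r = 0.08 in the YTHDF1 RIP and r = -0.04 in the YTHDF2 RIP across the members, against 0.17 and 0.13 across the protein-coding genes. Log2 transcript length had r = 0.17 and 0.34 in the members and 0.21 and 0.38 in the protein-coding genes. For the level itself (log2 of mean FPKM + 1) r was 0.31 and 0.46 in the members and -0.01 and 0.02 in the protein-coding genes. This mean includes the RIP libraries, so it shares values with the change. Whether the members differ from other genes in it was not tested. The median coding sequence was 549 nt in the members and 1425 nt in the protein-coding genes, and the median 3′ UTR was 1448 nt and 1169 nt. The part that base composition has in the recovery of each gene was not tested.

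**Figure D3:**
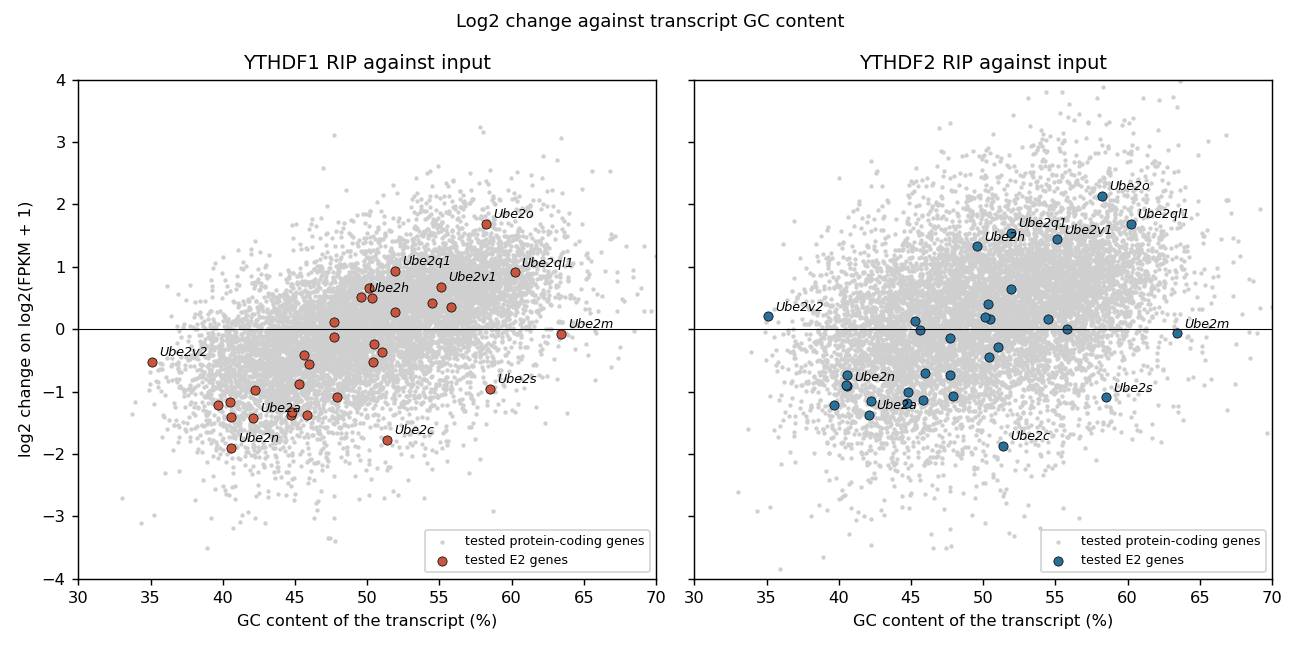
Log2 change on log2(FPKM + 1) against the GC content (%) of the representative transcript, for YTHDF1 RIP against input (left) and YTHDF2 RIP against input (right). Large points are the 32 tested E2 genes and small grey points the tested protein-coding genes, of which 20 and 22 lie outside the axes. The E2 genes lie within the cloud, with Ube2o at 58.2% GC the highest in both and Ube2n (left, 40.6% GC) and Ube2c (right, 51.4% GC) the lowest.

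Other genes of the pathway were counted from lists chosen in the same way, against the backgrounds of all tested genes given above. Of 9 tested E1 genes, which load ubiquitin and its relatives onto E2s, none passed in either RIP without the block (with it, 1 was higher and 1 lower in the YTHDF2 RIP), with median changes of -0.43 in the YTHDF1 RIP and -0.31 in the YTHDF2 RIP. Of 11 tested ubiquitin and ubiquitin-like precursors, 0 rose in the YTHDF2 RIP without the block, and Sumo2 fell (-1.81 ± 0.45, limma adjusted p = 0.0348). It had 9.91 and 9 FPKM in the YTHDF2 RIP, against 41.9 and 30.2 FPKM in input, and no value overlapped. With the block, 1 of these precursors was higher and 4 were lower in the YTHDF2 RIP. In the YTHDF1 RIP 0 were higher and 2 were lower with it. Of 6 tested E2 or E2-like genes outside the naming rule, Atg3, the E2-like enzyme of autophagosome formation, and Tsg101, a catalytically inactive E2 variant of endosomal sorting, fell in the YTHDF2 RIP (-2.05 ± 0.40 and -1.93 ± 0.34, limma adjusted p = 0.0214 and 0.0175). Tsg101 also fell in the YTHDF1 RIP (-1.73 ± 0.34, limma adjusted p = 0.0496).

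The ligases were counted in the YTHDF2 RIP, where 11.9% of all tested genes rose and 6.66% fell. Of 27 HECT and U-box E3 genes, 3 rose and 0 fell (4 and 0 with the block), namely Arel1 (1.83 ± 0.39), Hectd4 (1.72 ± 0.40) and Smurf1 (1.38 ± 0.34, limma adjusted p = 0.0241, 0.0291 and 0.0348), the last a ligase known from axon formation. Of 13 RBR E3 genes, 2 rose and 0 fell (3 and 0 with the block), namely Rnf144b (1.41 ± 0.27) and Rnf31 (1.06 ± 0.29, limma adjusted p = 0.0211 and 0.0417), the catalytic subunit of the linear chain assembly complex. Of 57 deubiquitinases, 3 rose (Otud7a, Usp42 and Otub2) and 4 fell (Uchl3, Uchl5, Usp8 and Psmd14) in the YTHDF2 RIP, and with the block 9 were higher and 5 lower. Uchl3 had the largest change of these, with 2.47 and 2.81 FPKM in the YTHDF2 RIP, against 17.9 and 14.1 FPKM in input, and was the only deubiquitinase past the threshold in the YTHDF1 RIP without the block (-2.29 ± 0.35, limma adjusted p = 0.036). With the block, 1 was higher and 4 were lower there. The median change in the YTHDF2 RIP was 0.08 for the HECT and U-box genes, 0.48 for the RBR genes and 0.14 for the deubiquitinases, against 0.26 for all tested genes.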

How the data were processed

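RIP-seq libraries were made from dissociated cerebellum with a magnetic RIP kit and an Illumina TruSeq kit. The authors deposited 1 FPKM value per gene and library, with no pooling of replicates and no stated scaling between libraries. Mapping to GRCm38 with STAR 2.5 and Cufflinks 2.2.1 is named in the study's methods, while the submitters' processing notes also list Bowtie 0.12.2, mm8 and mm9. The tool that calculated the FPKM, and whether strand was used, are not given in the sources used here. All 6 columns were used. Read depth is unknown: of the low values, only 40.2% to 52.3% were whole multiples (to 0.1) of the best step of many tried. Chance gives 20% for 1 fixed step, which is not the chance level for a best step. Hence no count model was run and no interval on counting error is given.

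Symbols, coordinates and transcripts came from GENCODE release 21 (147 IDs had no entry). Tests covered the 11057 genes (9815 protein-coding) that averaged 1 FPKM or more, and were run with limma 3.58.1 (R 4.3.3) on log2(FPKM + 1), a scale that understates the change of low genes. All 6 libraries entered 1 fit with group means (3 residual degrees of freedom, eBayes with trend), tests were 2-sided, and p-values were Benjamini-Hochberg adjusted over all tested genes with a threshold of 0.05. The fit was run first on simulated data with independent noise in each library. The correlated deviations of the real RIP libraries were not simulated, so that run does not show the error rate in these data. Reported in full were members past the threshold with or without the block, the 6 most abundant in input, and the extremes of each RIP. Further members were given values to describe a role or a paralog and were chosen after their values were seen. In each other list, at most 4 genes past the threshold were named per comparison. Values of 1 tested member and of 1 gene of another list are not reported here. The members and lists were chosen with earlier results of these data known.

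The design text states 2 replicates that each hold input and IP, so the replicate number was taken to pair libraries. Deviations from group means correlated at 0.682 between the RIPs, -0.142 between YTHDF1 RIP and input and -0.137 between YTHDF2 RIP and input (11057 genes). The pairing of input with RIP by number is therefore uncertain, and so are calls that passed only with the block. Alternatives were a pseudocount of 0.1, no filter, a filter at 5 FPKM, 3 scalings, the replicate block, only the 4 libraries compared, and leaving out each library. Paralog identity was taken from global alignment of coding sequences (for Ube2n-ps1, local alignment to its transcript).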

Additional observations from a re-analysis of the deposited data

How the results depend on the processing

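No called direction reversed under any alternative. Of 1392 gene values over the alternatives, 1188 kept their call or stayed without one within the spread between replicates, 89 stayed without one and moved by more, 56 lost the call and 59 gained one. Among these, 77 values changed sign that passed neither as deposited nor under the alternative. The numbers of calls did change. For YTHDF1 RIP against input, 284 genes and 1 E2 gene passed; without the filter 0 and 0 did, with each library divided by its FPKM sum 0 and 0, with median-of-ratios scaling 793 and 6, with nuclear protein-coding scaling 604 and 4, and with only the 4 libraries compared 755 and 4. For YTHDF2 RIP against input, 2049 genes and 7 E2 genes passed, without the filter 0 and 0, with the filter at 5 FPKM 1243 and 4, and with division by the FPKM sum 4 E2 genes. Without the filter, 3922 genes had an unadjusted p under 0.05 for the YTHDF1 RIP. For YTHDF2 RIP against YTHDF1 RIP, 1 gene passed, and 0 did with a pseudocount of 0.1, without the filter, with the filter at 5 FPKM, with division by the FPKM sum or with 4 libraries. The cause was not tested. By requiring a ratio over 2 in both replicate pairs, the YTHDF1 RIP count of E2 genes was 2 and not 5.

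With the replicate block, 1432 genes and 8 E2 genes passed for the YTHDF1 RIP, 3349 and 11 for the YTHDF2 RIP, and 2 genes between the RIPs. A crossed pairing of input and RIP numbers, added after seeing the data because their deviations correlated negatively, gave 2239 and 11, 4007 and 13, and 2. Among the E2 genes the block by replicate number changed no call beyond those given in the text. The crossed pairing also called Ube2g1, Ube2j1 and Ube2q2 lower in the YTHDF1 RIP and Ube2b and Ube2s lower in the YTHDF2 RIP.

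Leaving out 1 library gave 0 to 802 genes and 0 to 4 E2 genes for the YTHDF1 RIP, 0 to 2141 genes and 0 to 6 E2 genes for the YTHDF2 RIP, and 0 to 1 genes between the RIPs. For the YTHDF2 RIP, 9 genes passed when input replicate 1 was left out, 0 for input replicate 2 and 860 for YTHDF2 RIP replicate 2. Scaling moved the share of YTHDF2 RIP calls that were higher, which was 64.1% as deposited, 42.7% with median-of-ratios scaling, 52.8% with nuclear protein-coding scaling and 91% with division by the FPKM sum. With 2 libraries a group and no read counts, members at 1 or 2 FPKM cannot be judged for counting error.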
